A study of Mus musculus with 8 samples.

Results

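The genes described here are 10 cadherin and epithelial-mesenchymal transition genes of the mouse epiblast: Cdh1, Cdh2, Epcam, Vim, Snai1, Snai2, Zeb1, Zeb2, Grhl2 and Ovol2. They were taken by symbol from a table of 52636 gene identifiers, in which each symbol matched 1 identifier. All 10 were among the 18321 genes that passed the filter on low counts. Their levels were read in 8 RNA-seq libraries of epiblast at embryonic day 5.5 (E5.5), each from a pool of 10 epiblasts. All embryos carried the genotype Sox2Cre;CRAFR26, in which Sox2Cre drives recombination in the epiblast and the cRAF construct induces the kinase ERK when 4-hydroxytamoxifen (4OHT) is added. Culture was in IVC2 medium and lasted 4 h, with 4OHT at 250 nM in one condition and the solvent ethanol as vehicle in the other. Extraembryonic layers were dissected away before lysis. Vehicle and 4OHT were each applied to embryos of clone 4 and clone 8, 2 clones of the targeted embryonic stem cells, with 2 libraries per clone and condition. The titles call the vehicle libraries 0 h, while their treatment label gives 4 h of vehicle. The replicates are not said to come from separate litters, so p-values measure the spread between these pools.

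In an epithelium, E-cadherin (Cdh1) joins neighbouring cells at adherens junctions. During an epithelial-mesenchymal transition, zinc-finger repressors of the Snail (Snai1, Snai2) and Zeb (Zeb1, Zeb2) families bind E-box sequences and repress Cdh1 and other epithelial genes, while N-cadherin (Cdh2) and the intermediate filament protein vimentin (Vim) rise. Grhl2 and Ovol2 are transcription factors that maintain the epithelial state. The epiblast is an epithelium until gastrulation, when cells leave it through the primitive streak. FGF signalling, which acts through ERK, is needed there for Snai1 expression.

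The E-box of the Snail and Zeb repressors, CACCTG on either strand (CAGGTG on the other), can be read upstream of the start sites of these genes. RefSeq promoters of build GRCm38.p6 were matched for 5 of the 10 genes: Epcam, Vim, Snai1, Zeb2 and Ovol2. Cdh1, Cdh2, Snai2, Zeb1 and Grhl2 had no entry. The 250 bases before the start are shown for Epcam, whose highest and lowest libraries were the closest of the 10 genes, and for Snai1, itself a repressor. Both windows lie outside any annotated exon of GENCODE M21 and end at the base before the annotated gene. That of Epcam is chr17:87635729-87635978 on the plus strand and that of Snai1 is chr2:167537945-167538194 on the plus strand. Sequences run 5′ to 3′, with the E-boxes in capitals.
Epcam: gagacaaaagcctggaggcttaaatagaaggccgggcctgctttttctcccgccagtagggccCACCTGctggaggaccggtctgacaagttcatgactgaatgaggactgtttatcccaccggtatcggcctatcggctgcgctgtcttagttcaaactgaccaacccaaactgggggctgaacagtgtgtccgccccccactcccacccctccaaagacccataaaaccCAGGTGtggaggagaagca
Snai1: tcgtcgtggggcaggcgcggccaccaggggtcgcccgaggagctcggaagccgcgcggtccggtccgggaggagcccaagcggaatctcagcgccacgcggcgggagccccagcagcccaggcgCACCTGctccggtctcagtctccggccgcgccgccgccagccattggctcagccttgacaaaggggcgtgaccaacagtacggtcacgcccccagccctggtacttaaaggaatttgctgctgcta
Epcam held 2 matches, which begin 187 and 19 bases before the start, and Snai1 held 1, which begins 126 bases before it. Of 32851 RefSeq windows of the same length, 17.2% held at least 1 match. The windows of Vim and Ovol2 and the 4 of Zeb2 held none. The motifs CCGGAAG of ETS factors, GCGTGGG of EGR factors and TGAGTCA of AP-1, searched on both strands, were in neither printed window and in 6.91%, 4.30% and 4.46% of all windows. The AP-1 motif had 2 matches in 1 of the 4 windows of Zeb2, which begin 189 and 132 bases before that start, and the other windows of the matched genes held none of these 3 motifs. None of these matches overlapped another. Unlike the printed windows, those of Vim and Ovol2 and all but the first of Zeb2 overlap annotated exons. The Zeb2 window with the AP-1 matches is among them.

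Vehicle libraries were shallower, at 33.3 to 38.0 M counts, than the 4OHT libraries, at 56.4 to 72.5 M counts (M, mega). All 10 epiblast markers were detected in every library, with a summed level of 5462 to 6906 CPM (counts per M of the library size, after scaling by TMM). Markers of 3 neighbouring tissues were also present, with 0 of them at 0 counts in any library. The 12 extraembryonic ectoderm markers had a sum of 210 and 241 CPM in clone 8 vehicle, against 498 to 752 CPM elsewhere. The 15 visceral endoderm markers summed to 911 to 3515 CPM and the 7 parietal endoderm markers to 41.6 to 186 CPM. Maternal decidua (7 markers, 12.4 to 20.1 CPM) and blood (5 markers, 4.08 to 20.6 CPM) were low, with up to 3 markers of each at 0 counts in a library. In such bulk pools, fewer cells of a type and less RNA per cell cannot be told apart.

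Per kilobase of exon, the 2 adhesion genes of epithelia stood far above the rest. Epcam was at 235 ± 20.9 CPM per kilobase (SD over the 8 libraries, all groups) and Cdh1 at 168 ± 39.2. Their ranges did not overlap each other or that of any other member. Next came Snai1 at 7.56 ± 2.63, Grhl2 at 4.44 ± 0.812, Vim at 4.25 ± 1.13, Ovol2 at 3.12 ± 1.03 and Cdh2 at 2.22 ± 0.796 CPM per kilobase, and each of these 5 overlapped its neighbour among them in range. Zeb1 at 0.221 ± 0.0674, Snai2 at 0.145 ± 0.135 and Zeb2 at 0.0420 ± 0.0226 CPM per kilobase lay below all others and overlapped each other in that order. This is the order of the means, and it is not kept in every library. In vehicle clone 8 replicate 2, for example, Snai1 at 3.16 CPM per kilobase was below Vim at 5.70, Ovol2 at 4.95 and Grhl2 at 4.05.

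**Figure D1:**
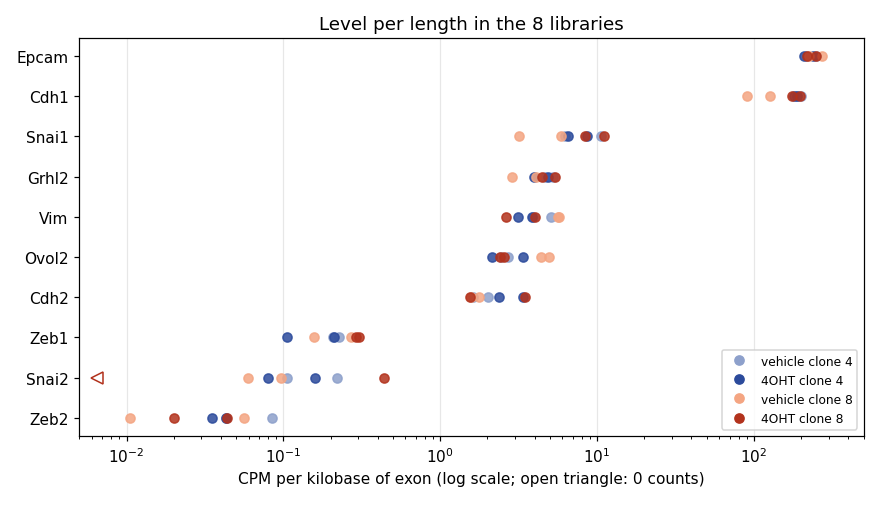
Level of the 10 genes in CPM per kilobase of exon on a log axis, 1 point per library coloured by clone and condition. Epcam and Cdh1 lie between 89.8 and 269.9, with the 2 lowest points of Cdh1 in clone 8 vehicle, a middle group of 5 genes between 1.5 and 11.1, and Zeb1, Snai2 and Zeb2 below 0.5; the open triangle is the library with 0 counts of Snai2.

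In clone 4, edgeR's quasi-likelihood test called 0 of the 10 genes (adjusted p below 0.05), where 0.0382% of all tested genes were called. Of the 10, 0 had an unadjusted p below 0.05, against 9.90% of all tested genes. DESeq2 also called 0, with no adjusted p for Snai2. Within clone 8, 2 of the 10 were called, Cdh1 higher and Ovol2 lower, where 16.6% of all tested genes were called, 8.00% higher and 8.60% lower. At an unadjusted p below 0.05 there were 5 of the 10, against 33.2%. Mitochondrial genes held 1.35% and 1.19% of counts in the 4OHT libraries of clone 8, 0.47% and 0.619% in its vehicle libraries and 0.205% to 0.417% in clone 4, and the part of this in the clone 8 response was not tested. In clone 8 the 4OHT libraries lay on 1 side of both vehicle libraries for 6 of the 10 genes, against 60.0% of all tested genes. In clone 4 this held for 2 of the 10, Cdh2 and Vim, against 47.5%. The clone 8 share is that of its background and the clone 4 share is below it. The vehicle libraries of the clones also differed, with 1 of the 10 called, Cdh1, which was lower in clone 8, where 8.37% of all tested genes were called and 4.31% were lower. Of the 10, 4 had an unadjusted p below 0.05 there, against 25.7%, and 6 did not overlap between the clones, against 58.8%. The clone 8 response and this clone comparison share the 2 vehicle libraries of clone 8.

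**Figure D2:**
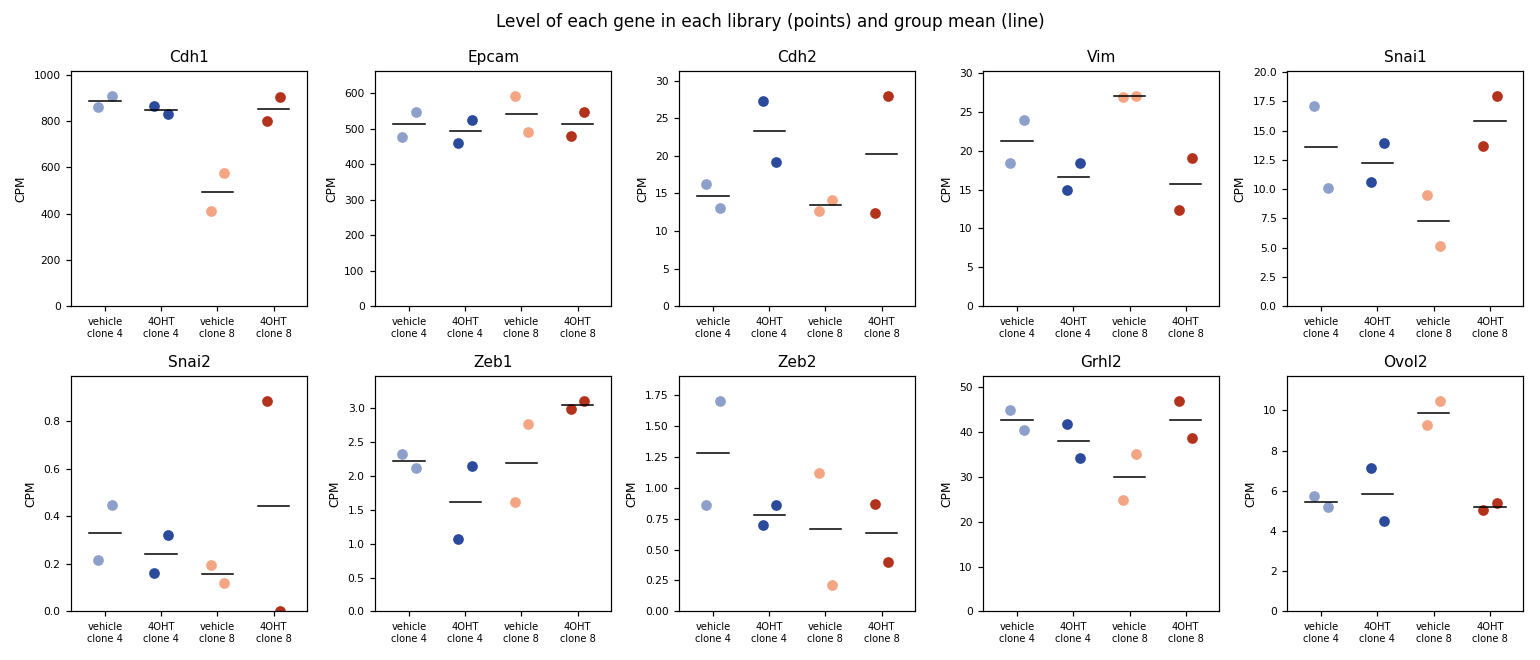
CPM of each gene in each library (points, replicate 1 left and replicate 2 right) with the group mean (line), on axes that start at 0. The vehicle libraries of clone 8 hold the 2 lowest values of Cdh1 and the 2 highest of Ovol2 and Vim, whereas Epcam stays between 460 and 592 CPM.

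Cdh1 (ENSMUSG00000000303, mm10 chromosome 8, bases 106603351 to 106670246, plus strand) encodes E-cadherin, the adhesion protein of epithelial junctions. Clone 4 had 861 and 908 CPM in vehicle and 865 and 829 CPM with 4OHT. Clone 8 had 411 and 577 CPM in vehicle and 798 and 904 CPM with 4OHT. The vehicle libraries of clone 8 were thus the lowest of all, and the other 6 libraries lay within 798 to 908 CPM. The response in clone 8 was a 1.72-fold rise, with a log2 fold change of 0.79 (SE 0.15, edgeR adjusted p 0.0134), and that in clone 4 was -0.06 (SE 0.15, adjusted p 0.942). Between the vehicle libraries, clone 8 was 1.79-fold lower than clone 4, with a log2 difference of -0.84 (SE 0.15, edgeR adjusted p 0.0226). That call was lost without vehicle clone 4 replicate 1, without vehicle clone 4 replicate 2 and without vehicle clone 8 replicate 1 (values of -0.86, -0.78 and -0.60, adjusted p 0.129, 0.155 and 0.176). The test of the difference between the 2 responses gave 0.85 (SE 0.21, edgeR adjusted p 0.0685), where 0 of the 10 and 2.83% of all tested genes were called. At an unadjusted p below 0.05 there were 4 of the 10, against 22.7%. By DESeq2 that difference had an adjusted p of 0.0106.

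The Cdh1 response in clone 8 rested on a single vehicle library more than on the others. Without vehicle clone 8 replicate 1 it was 0.54 with an edgeR adjusted p of 0.0944, and in a fit of the clone 8 libraries alone it was 0.76 with an adjusted p of 0.0716. Without vehicle clone 8 replicate 1, 0 of the 18321 genes were called within clone 8, against 3041 with it. The extraembryonic ectoderm markers moved with Cdh1. In the vehicle libraries 8 of these 12 markers were called lower in clone 8, against 4.31% of all tested genes. After 4OHT in clone 8, 8 of the 12 were called higher, against 8.00%. Visceral endoderm markers differed the other way. In vehicle 6 of 15 were called higher in clone 8, where 8.37% of all tested genes were called. After 4OHT in clone 8, 5 of the 15 were called lower, against 8.60%, and 1 higher. The part of these tissues in the Cdh1 values was not tested. A trend with exonic length was also present in clone 8, where the median log2 response ran from -0.30 in the shortest of 5 equal length classes to 0.27 in the longest. Cdh1, with 4574 exonic bases, was in class 4, whose median was 0.16. With each library's trends with length and GC content removed, its response was 0.71 (edgeR adjusted p 0.0165).

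Epcam (ENSMUSG00000045394) encodes a surface adhesion glycoprotein of epithelia, and its promoter is printed above. Its clone 4 levels were 477 and 549 CPM in vehicle and 460 and 526 CPM with 4OHT. Its clone 8 levels were 592 and 491 CPM in vehicle and 479 and 548 CPM with 4OHT. The groups overlapped in both clones. The log2 fold changes were -0.06 (SE 0.13, edgeR adjusted p 0.943) in clone 4 and -0.08 (SE 0.13, adjusted p 0.728) in clone 8. Its highest library was 1.29-fold above its lowest, against 2.21-fold for Cdh1. The ratio of Cdh1 to Epcam per kilobase was accordingly 0.333 and 0.563 in the vehicle libraries of clone 8 and 0.757 to 0.901 in the other 6.

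Cdh2 (ENSMUSG00000024304) encodes N-cadherin, the cadherin of mesoderm and neural tissue. For clone 4 the values were 16.3 and 13.0 CPM in vehicle and 27.3 and 19.2 CPM with 4OHT, groups that did not overlap. For clone 8 the values were 12.7 and 14.2 CPM in vehicle and 12.5 and 27.96 CPM with 4OHT, where replicate 1 was level with vehicle and replicate 2 about as high as the highest library of clone 4. Without 4OHT clone 8 replicate 1 the clone 8 value was 1.06 (edgeR adjusted p 0.025), and without 4OHT clone 8 replicate 2 it was -0.11. With all libraries the log2 fold changes were 0.66 (SE 0.35, edgeR adjusted p 0.599) in clone 4 and 0.59 (SE 0.35, adjusted p 0.273) in clone 8. Both clones together gave 0.63 (SE 0.25, adjusted p 0.253, unadjusted p 0.0299). With the clones together, 0 of the 10 genes were called, where 0.00546% of all tested genes were. An unadjusted p below 0.05 was found for 2 of the 10, Cdh2 and Vim, against 16.9% of all tested genes. DESeq2 called 0 of the 10 there and gave no adjusted p for Snai2 and Zeb2.

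Vim (ENSMUSG00000026728) encodes vimentin, the intermediate filament protein of mesenchymal cells. Clone 4 had 18.4 and 24.0 CPM in vehicle and 14.9 and 18.3 CPM with 4OHT. Clone 8 had 26.9 and 27.0 CPM in vehicle and 12.4 and 19.1 CPM with 4OHT. The 4OHT libraries were below both vehicle libraries of their own clone in each clone. The log2 fold change was -0.35 (SE 0.24, edgeR adjusted p 0.729) in clone 4 and -0.78 (SE 0.24, adjusted p 0.0571) in clone 8. Both clones together gave -0.56 (SE 0.19, adjusted p 0.202). In clone 8 DESeq2 gave -0.79 with an adjusted p of 0.00878, so the call depended on the tool. It also depended on the settings of edgeR, which called Vim with no filter on low counts (adjusted p 0.0153), with thinned counts (0.0469) and with the length and GC trends removed (0.0387). Without 4OHT clone 8 replicate 2 the edgeR value was -1.12 and its adjusted p 0.0268.

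Snai1 (ENSMUSG00000042821) encodes Snail, the repressor that acts on Cdh1 as cells leave the epiblast at gastrulation. Its clone 4 levels were 17.1 and 10.1 CPM in vehicle and 10.6 and 13.9 CPM with 4OHT, so the groups overlapped. Its clone 8 levels were 9.50 and 5.12 CPM in vehicle and 13.7 and 18.0 CPM with 4OHT. Its vehicle libraries in clone 8 were the lowest 2 of the 8. The log2 fold change was -0.15 (SE 0.35, edgeR adjusted p 0.938) in clone 4 and 1.11 (SE 0.35, adjusted p 0.0592) in clone 8, a ratio of 2.16. DESeq2 gave 1.09 with an adjusted p of 0.0084 in clone 8. There edgeR called Snai1 with library totals (adjusted p 0.039), with no filter on low counts (0.000546) and with the length and GC trends removed (0.0408). It did not with RLE scaling (0.0655), a replicate block (0.0635), thinned counts (0.0774) or clone 8 alone (0.114). Without vehicle clone 8 replicate 2 the edgeR value was 0.70 and its adjusted p 0.262. The responses of the clones differed by 1.26 (SE 0.49, edgeR adjusted p 0.175). For this difference the adjusted p was 0.0166 by edgeR with no filter and 0.066 by DESeq2. In clone 8 Snai1 and Cdh1 thus both stood lower in vehicle than with 4OHT, though edgeR as reported did not call Snai1. For both genes the vehicle libraries of clone 8 were the lowest 2 of the 8. A link between the 2 genes was not tested.

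Snai2 (ENSMUSG00000022676), which encodes the related repressor Slug, was near the limit of detection. Its counts were 8 and 15 in vehicle and 9 and 23 with 4OHT in clone 4, and 7 and 4 in vehicle and 55 and 0 with 4OHT in clone 8. The library with 0 counts allows a level of up to 0.0501 CPM, as 3 counts would give, whereas its replicate stood at 0.883 CPM. The 2 libraries of that group thus held both the highest and the lowest level of Snai2 in the series. The standard errors of its log2 fold changes were 1.43 in clone 4 and 1.49 in clone 8, with edgeR adjusted p-values of 0.960 and 0.531.

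Zeb1 (ENSMUSG00000024238) and Zeb2 (ENSMUSG00000026872) encode zinc-finger and homeodomain repressors of Cdh1. Zeb1 stood at 2.33 and 2.11 CPM in vehicle and 1.08 and 2.15 CPM with 4OHT in clone 4. For clone 8 the values were 1.62 and 2.77 CPM in vehicle and 2.98 and 3.10 CPM with 4OHT. The log2 fold changes were -0.45 (SE 0.42) and 0.47 (SE 0.42), with edgeR adjusted p-values of 0.807 and 0.465. Both 4OHT libraries of clone 8 were the highest of the 8, by less than the spread between the vehicle libraries.

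Zeb2 was the lowest of the 10 per kilobase, with 19942 exonic bases over all its transcripts. By CPM, without length, Snai2 had the lowest mean of the 10, at 0.293, and Zeb2 was next at 0.838. Zeb2 stood at 0.856 and 1.70 CPM in vehicle and 0.700 and 0.862 CPM with 4OHT in clone 4, from 32 to 62 counts. Clone 8 had 1.11 and 0.211 CPM in vehicle and 0.867 and 0.400 CPM with 4OHT, from 7 to 54 counts. The groups overlapped in both clones, and the edgeR adjusted p-values were 0.834 and 0.959. The use of strand in the counting is not stated, and 3.27% of the exonic bases of Zeb2 overlap the antisense gene Zeb2os, which had 0 to 3 counts.

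Grhl2 (ENSMUSG00000022286) encodes a grainyhead-like factor that activates Cdh1 in epithelia. For clone 4 the values were 44.8 and 40.4 CPM in vehicle and 41.8 and 34.0 CPM with 4OHT. Its clone 8 levels were 24.8 and 34.9 CPM in vehicle and 46.8 and 38.6 CPM with 4OHT. Vehicle clone 8 replicate 1 was the lowest of the 8, as for Cdh1, and the 4OHT libraries of clone 8 lay above both of its vehicle libraries. The log2 fold change was -0.17 (SE 0.20, edgeR adjusted p 0.861) in clone 4 and 0.52 (SE 0.20, adjusted p 0.110) in clone 8. Of the 45 pairs among the 10 genes, Cdh1 and Grhl2 had the smallest root mean square difference in centred log2 CPM over the 8 libraries, 0.21. This measure is small for genes that vary little, and Grhl2 itself varied by 0.27. Genes outside the 10 came closer, such as Phrf1 to Cdh1 (0.04) and Birc2 to Grhl2 (0.07). A link between Cdh1 and Grhl2 was not tested. The overlapping antisense gene Gm16136 had 82 to 341 counts, against 890 to 2914 for Grhl2, and covers 1.96% of its exonic bases.

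Ovol2 (ENSMUSG00000037279) encodes a zinc-finger repressor that holds down mesenchymal regulators such as Zeb1. Clone 4 had 5.72 and 5.18 CPM in vehicle and 7.16 and 4.49 CPM with 4OHT, so the groups overlapped. For clone 8 the values were 9.25 and 10.5 CPM in vehicle and 5.05 and 5.37 CPM with 4OHT. The vehicle libraries of clone 8 stood apart from the other 6, here above them, in the opposite direction to Cdh1. The response in clone 8 was a 1.89-fold fall, with a log2 fold change of -0.92 (SE 0.27, edgeR adjusted p 0.0464), and in clone 4 it was 0.09 (SE 0.27, adjusted p 0.953). The responses of the clones differed by -1.01 (SE 0.38, adjusted p 0.163). The clone 8 call held only without 4OHT clone 4 replicate 1 or without 4OHT clone 4 replicate 2. Leaving out any of the other 6 libraries ended it, and over all 8 such fits the value ran from -1.02 to -0.86. It was also lost with library totals as the scaling (-0.80, edgeR adjusted p 0.0726) and with the length and GC trends removed (-0.78, adjusted p 0.0816). DESeq2 called Ovol2 (adjusted p 0.0095), as did edgeR with RLE scaling (0.0424), with no filter (0.0409) and with thinned counts (0.0438). Extraembryonic ectoderm markers, at 210 and 241 CPM in clone 8 vehicle, were lowest in the libraries where Ovol2 was highest. Visceral endoderm markers summed to 2009 and 2096 CPM in clone 8 vehicle and to 936 and 1694 CPM with 4OHT there. In clone 4 their sums were 1342 and 911 CPM in vehicle and 3113 and 3515 CPM with 4OHT. The part of these tissues in the Ovol2 result was not tested. The antisense gene 1700108N11Rik covers 17.0% of the exonic bases of Ovol2 but had at most 1 count in a library.

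**Figure D3:**
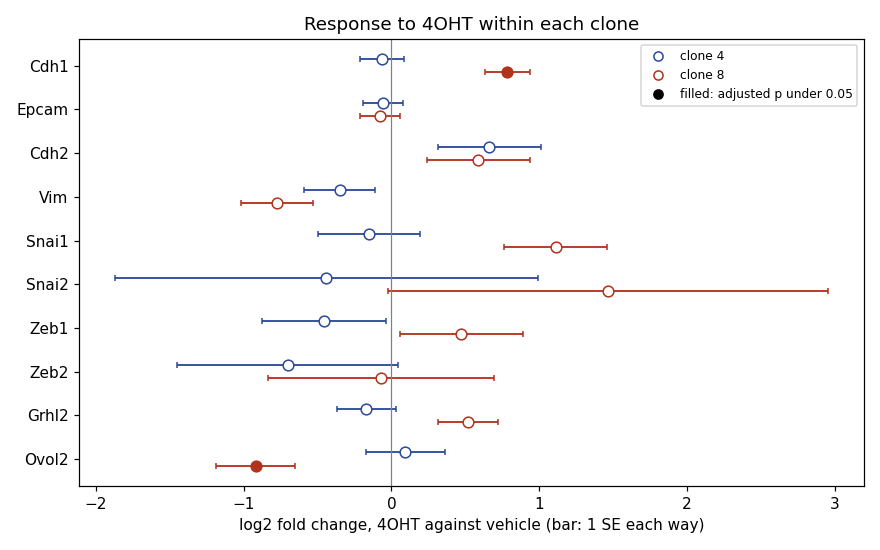
Log2 fold change of 4OHT against vehicle for each gene within clone 4 (blue) and clone 8 (red), with 1 SE each way and filled points at an adjusted p under 0.05. The filled points are Cdh1 at 0.79 and Ovol2 at -0.92, both in clone 8, and the bars of Snai2 are the widest.

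The genes were also set against each other within a library. The ratio of Cdh1 to Cdh2 per kilobase was 93.1 and 123 in vehicle and 55.8 and 76.3 with 4OHT in clone 4. In clone 8 it was 57.1 and 71.7 in vehicle and 113 and 57.0 with 4OHT. The 4OHT ratios were thus below both vehicle ratios in clone 4 and spread around them in clone 8. The ratio of Epcam to Vim was 55.9 and 49.4 in vehicle and 66.8 and 61.9 with 4OHT in clone 4, and 47.5 and 39.3 in vehicle and 83.3 and 62.1 with 4OHT in clone 8. All 4 4OHT libraries stood above all 4 vehicle libraries in this ratio, which was singled out after its values were seen and was not tested. The ratio of Grhl2 to Ovol2 was 0.658 and 0.819 in the vehicle libraries of clone 8 and 1.43 to 2.27 in the other 6.

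**Figure D4:**
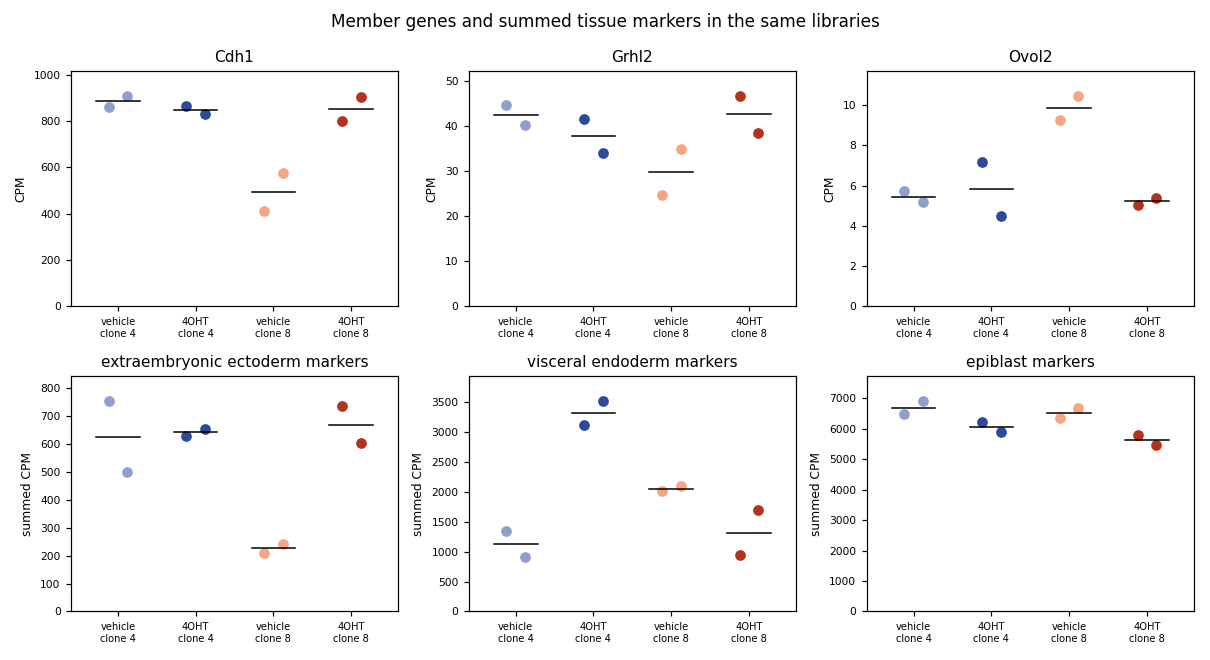
Top, CPM of Cdh1, Grhl2 and Ovol2, and bottom, summed CPM of extraembryonic ectoderm, visceral endoderm and epiblast markers, in the same libraries (points) with group means (lines). In the vehicle libraries of clone 8, Cdh1 and the extraembryonic ectoderm sum (210 and 241 CPM) are at their lowest and Ovol2 at its highest.

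Among 9159 other genes above the median level, the nearest to Cdh1 in pattern over the 8 libraries were Phrf1, Efr3a and Caprin1. Their root mean square differences from Cdh1 were 0.04, 0.06 and 0.06 in centred log2 CPM, where Cdh1 itself varied by 0.38. Nearest to Grhl2 were Birc2, 2810429I04Rik and Zfp280c (0.07, 0.07 and 0.08). Nearest to Vim was Pcolce2 (0.10), to Snai1 Efna3 (0.22), and to Ovol2 Snrpert (0.14). No gene came within 0.5 of Zeb2 or within 0.8 of Snai2, where the nearest were Mgarp (0.55) and Cntnap2 (0.82).

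The wider set of junction and transition genes was read from 6 lists. In clone 4, 0 genes of the 6 lists were called by edgeR, against 0.0382% of all tested genes, and the list medians ran from -0.03 to 0.22. In clone 8 the median of all tested genes was 0.07, and 16.6% of them were called. Of all tested genes 8.00% were called higher there and 8.60% lower, which is the background for the counts below. Genes are named from the lists below because they were called, or for comparison, and were chosen after their values were seen.

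Of 14 adherens junction partners, 3 rose and 2 fell in clone 8, with a list median of -0.11. Vcl, which encodes vinculin, the link between cadherin complexes and actin under tension, was at 9.002 and 18.8 CPM in clone 8 vehicle and between 40.2 and 55.5 CPM elsewhere. Its log2 fold change in clone 8 was 1.83 (SE 0.30, edgeR adjusted p 0.0101). Ctnna1, which encodes alpha-catenin, rose by 0.67 on the log2 scale, and the cadherin Cdh24 by 1.59. The nectins Nectin1 and Nectin3, immunoglobulin-type adhesion proteins of the same junctions, fell by 0.66 and 1.37. Ctnnb1, which encodes beta-catenin, was not called and stood at 112 to 178 CPM over the 8 libraries.

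Of 21 epithelial genes and regulators, 3 rose and 3 fell in clone 8, with a median of 0.24. The genes that rose were the grainyhead-like factors Grhl3 (1.72) and Grhl1 (1.61), and the splicing regulator Esrp2 (1.22), in log2 units. Grhl3 had 7.41 and 7.74 CPM in clone 8 vehicle, below the 16.2 to 27.1 CPM found elsewhere. The genes that fell were the polarity gene Crb3 (-0.77), the Rab GTPase gene Rab25 (-0.79) and the protease inhibitor gene Spint2 (-0.55). Genes of this list thus changed in both directions.

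Of 20 mesenchymal genes and regulators, 14 passed the filter, of which 3 rose and 1 fell in clone 8, with a median of 0.11. Snai3, the third Snail gene, rose by 1.56 (SE 0.41, edgeR adjusted p 0.0320). That call was lost in 5 of 8 fits that left out a library, namely either vehicle library of either clone or 4OHT clone 8 replicate 2, and ran from 0.78 without the last to 2.07 without 4OHT clone 8 replicate 1. The fibrillar collagen gene Col1a1 rose by 1.47. Col3a1, another, was called higher from levels near the detection limit, at 0 and 0.0904 CPM in vehicle and 0.738 and 0.701 CPM with 4OHT. Sparc, a matrix protein gene that is abundant in parietal endoderm, fell by 0.81, from 298 and 232 CPM to 134 and 169 CPM. Of 14 regulators of the transition at gastrulation, 1 was called in clone 8, Net1, which rose by 0.60. The Net1 call was lost without the same 5 libraries, and its value ran from 0.43 without 4OHT clone 8 replicate 2 to 0.76 without 4OHT clone 8 replicate 1. T, of the same list, was not called. It stood at 39.7 CPM in 4OHT clone 8 replicate 2 and at 3.34 to 10.3 CPM in the other 7 libraries. Mesp1 was also highest in that library (3.12 CPM, 0 to 1.34 CPM elsewhere), while Wnt3 was lowest there (8.39 CPM). Fgf8 was not called (-1.57, edgeR adjusted p 0.0635). Fgf8 stood at 106 CPM in vehicle clone 8 replicate 1 and at 17.0 to 30.0 CPM in the other 7 libraries. Its value ran from -0.41 without vehicle clone 8 replicate 1 to -2.24 without vehicle clone 8 replicate 2, where it was called.

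Of 17 genes that act upstream of Snail and Zeb or as their cofactors, 5 rose and 3 fell in clone 8, with a median of 0.05. Smad3, a transducer of TGF-beta and Nodal signals, rose by 1.44 and its partner Smad4 fell by 1.38. Ctbp1 and Ctbp2, which encode corepressors that Zeb proteins recruit, fell by 1.10 and 0.48. Tgfbr1, Ets2, Fosl1 and Egr1 rose by 0.98, 1.26, 2.07 and 5.25. The ERK check list of 10 genes, which also holds Egr1, had 4 genes higher (Egr1, Fos, Dusp6 and Spry4) and 1 lower (Spred1) in clone 8. The list median there was 0.63, against 0.12 in clone 4. In clone 4, 0 of the list were called, with 8 positive and 2 negative values. The lowest p-values in clone 4 were those of Dusp4, Egr1 and Spry2, which rose by 0.98, 2.32 and 0.61 (edgeR adjusted p 0.192, 0.234 and 0.241). Egr1, an immediate early gene, was at 379 CPM in 4OHT clone 8 replicate 2 and at 55.4 to 75.9 CPM in the other 4OHT libraries. Its vehicle levels were 8.05 and 18.2 CPM in clone 4 and 5.77 and 6.12 CPM in clone 8. Fos, Dusp6 and Spry4 also had lower vehicle levels in clone 8 than in clone 4. Fos had 3.57 and 7.05 CPM against 19.9 and 16.4 CPM, and 15.1 and 49.4 CPM with 4OHT in clone 8. Dusp6 had 150.5 and 184.4 CPM against 212.5 and 212.4 CPM, and Spry4 45.4 and 72.9 CPM against 89.7 and 83.6 CPM. Spred1 had higher vehicle levels in clone 8, at 41.3 and 35.4 CPM against 21.3 and 19.6 CPM.

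**Figure D5:**
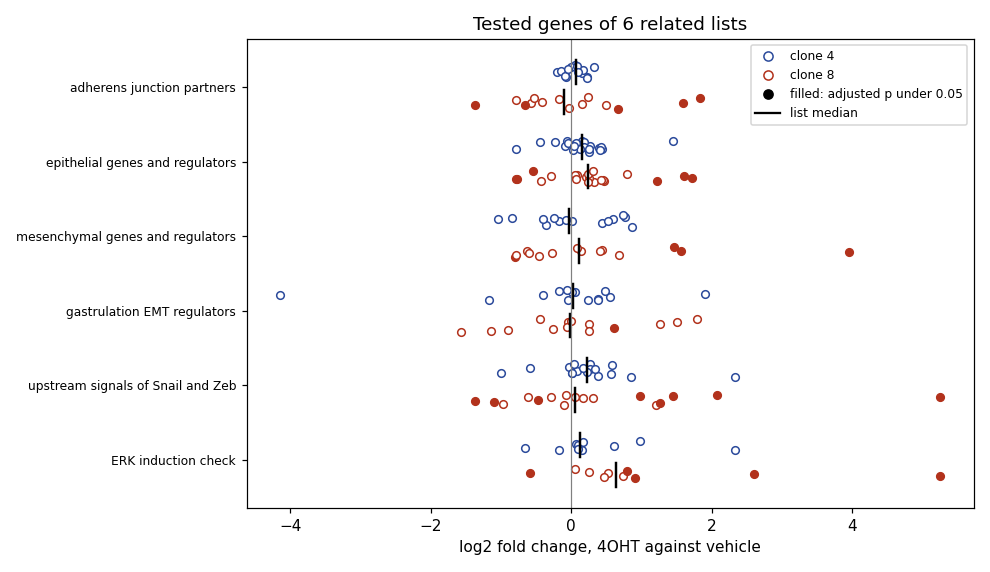
Log2 fold change of 4OHT against vehicle for each tested gene of the 6 lists (points) in clone 4 (blue) and clone 8 (red), filled at an adjusted p under 0.05, with list medians as black lines. Filled points occur in clone 8 and lie on both sides of 0 in each list except the gastrulation list, which has 1; Egr1 is on 2 lists.

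The markers of the tissues in the pools changed as well. In clone 8, 3 of 10 epiblast markers fell (Pou5f1, Sox2 and Utf1, by 0.62, 0.79 and 0.44), 5 of 15 visceral endoderm markers fell and 1 rose, and 8 of 12 extraembryonic ectoderm markers rose. Of all tested genes 8.00% were called higher in clone 8 and 8.60% lower. The medians of these lists were -0.41, -1.0 and 1.77. In clone 4, where 0.0382% of all tested genes were called, 1 visceral endoderm marker rose (Cldn2). The clone 4 medians were -0.24, 2.02 and 0.28 in the same order. Of the parietal endoderm, decidua and blood markers that passed the filter (7, 4 and 5), 0 were called in either clone, and their medians were 0.30, -0.28 and -3.15 for clone 8 against 1.0, -0.07 and -5.42 for clone 4. The part of these tissues in the values of the 10 genes was not tested.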

How the data were processed

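Per the labels' protocols, each library was made from 7 ng of RNA of 10 pooled epiblasts by a single-cell and low-input method. The authors deposited raw counts of reads per Ensembl gene, with 1 column per library. The submitters' processing notes name bcl2fastq 2.19.1, STAR 2.5.3a and build mm10. The counting program, annotation release and use of strand are not given in the sources used here.

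Symbols matched 52403 of the 52636 identifiers. Genes kept by filterByExpr (minimum count 10, 4 groups) were scaled by TMM and tested with edgeR 4.0.16 (glmQLFit, glmQLFTest) in R 4.3.3, with Benjamini-Hochberg adjustment over all 18321 genes. Responses within clones, their difference and the clones in vehicle came from 1 fit of the 4 groups, and the response over both clones from additive clone and treatment terms. SE is the log2 fold change over the root of F, and a prior count of 2 entered log2 CPM. Exonic lengths came from GENCODE M21 (GRCm38) and count each base that is exonic in any transcript of the gene, so they can exceed a single mRNA. Limits from 3 counts cover counting error only.

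In simulated counts for the clone 8 response, 43 of 100 genes changed by 1 and 88 of 100 changed by 2 on the log2 scale were recovered, over 17674 genes, with 13 false calls.

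The 10 genes and the lists were chosen with earlier results of these data known, and 1 item is not reported here. The naming rule took all 10 genes, the 3 lowest p-values per list and clone, and the 3 genes nearest in pattern. The text departs from it. Other list genes were named because they were called or for comparison, and not every gene that the rule took is named. Alternatives were RLE scaling, library totals, no filter, DESeq2 1.42.0, a replicate block, each clone alone, the mean of the within-clone responses and leaving out each library. Thinned counts and the removal of length and GC trends, known for 18293 genes, were chosen after the data were seen.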

Additional observations from a re-analysis of the deposited data

Results flagged for a closer look

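Of the 10 genes, edgeR called 0 for a difference in response between the clones (4 at an unadjusted p below 0.05, and Cdh1 by DESeq2). Of the list genes taken by the naming rule it called 9, where 2.83% of all tested genes were called. The rule picked genes by low p-values within a clone, from the same libraries, so these 9 calls are not independent of that choice. Given as the clone 8 response minus the clone 4 response on the log2 scale, the differences were 1.79 for Cdh24, 1.87 for Vcl, 1.77 for Grhl3, -0.95 for Crb3, -1.40 for Sparc, 1.36 for Smad3, -1.35 for Smad4, 2.66 for Fosl1 and 3.26 for Fos. Ets2, a list gene outside the rule, was also called. So were 8 of 15 visceral endoderm markers, all lower, and 5 of 12 extraembryonic ectoderm markers, all higher. Smad4 had 78.6 and 58.8 CPM in clone 8 vehicle and 22.1 to 28.1 CPM elsewhere, while Fosl1 had 3.51 and 6.03 CPM against 17.1 to 32.8 CPM. Fos had 3.57 and 7.05 CPM in clone 8 vehicle and 10.5 to 49.4 CPM elsewhere. Without vehicle clone 8 replicate 1, without 4OHT clone 4 replicate 1 or without 4OHT clone 4 replicate 2, edgeR called 0 genes in all for this difference, against 519 with all libraries. A library far from the other 3 of its condition was looked for in 20 sets of values of the 10 genes, where chance would give 1, and 0 were found. Each set pooled the 2 clones, so a difference between clones widens the range and can hide such a library. The search therefore does not exclude one.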

How the results depend on the processing

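Depth limits Snai2 and Zeb2, with 0 to 62 counts per library, and with 2 pools per group 1 library can decide a call. Of the single-gene values under settings other than leaving out a library, 459 kept direction and side of the threshold, 23 gained the threshold, 21 lost it and 13 turned sign. The cause of the changes below was not tested.

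Over all genes, the response in clone 4 gave 7 calls, and 728 with no filter, 468 by DESeq2, 220 in the clone alone and 14 with thinned counts. The response in clone 8 gave 3041 calls and 0 in the clone alone, where 4886 genes had an unadjusted p below 0.05. Without the filter and by DESeq2 the difference between clones gave 2114 and 1864 calls (519 in the fit as reported), both clones together 1337 and 1053 (1), and the clones in vehicle 2901 and 3064 (1534). The mean of the within-clone responses gave 1063 calls and the removal of length and GC trends 2 for both clones. Library totals moved the median of all genes in clone 8 from 0.069 to 0.191 and the share of calls that were higher from 48.2% to 66.2%, while the removal of the trends moved it to 36.6%. For the difference between clones library totals moved that share from 38.2% to 52.1%. Of the 10 genes, clone 8 gave 2 calls, 5 with no filter (where 4263 of all 30973 genes were called), 4 by DESeq2 (4308 of 18321), 3 with thinned counts (3066 of 18321), 3 with the trends removed (2530 of 18293) and 0 in the clone alone. The difference gave 2 calls with no filter and 1 by DESeq2, both clones together 2 with no filter, and the clones in vehicle 2 and 3. By DESeq2, 3197 of the 18321 genes had no adjusted p in clone 8, Snai2 among them.

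Replicate numbers did not pair the samples, since same-numbered deviations correlated by -0.03 to 0.09. With the replicate number as a block, clone 4 had 0 calls and clone 8 had 2986, Ovol2 in clone 8 was at -0.92 (edgeR adjusted p 0.0549), Vim at -0.81 (adjusted p 0.0306), and Zeb1 over both clones at -0.00011.

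The sign changes under these other settings were all of uncalled values. With library totals Epcam was at 0.048 and Zeb2 at 0.079 in clone 8, Epcam at 0.085 and Cdh2 at 0.023 for the difference, and Epcam at 0.0055 over both clones. With thinned counts Zeb1 was at -0.013 over both clones and at 0.058 between the clones in vehicle. With the trends removed Epcam was at 0.014 in clone 8, 0.095 for the difference and -0.01 in vehicle, and Zeb1 at -0.098 over both clones and 0.062 in vehicle.

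Leaving out 1 library at a time, calls over all genes ran from 0 to 259 in clone 4, 0 to 3218 in clone 8, 0 to 1205 for the difference, 0 to 1 over both clones and 0 to 2491 for the clones in vehicle. Calls among the 10 ran from 0 to 2 in clone 8 and from 0 to 1 for the difference and for the clones in vehicle. The following log2 values changed sign. In clone 4 Epcam ran from -0.15 to 0.05, Snai1 from -0.48 to 0.28, Snai2 from -1.02 to 0.18 and Ovol2 from -0.28 to 0.39. In clone 8 Epcam ran from -0.24 to 0.044, Cdh2 from -0.11 to 1.06, Zeb2 from -0.85 to 1.55 and Snai2 from -5.91 to 2.46. For the difference Epcam ran from -0.18 to 0.098, Cdh2 from -0.77 to 0.39, Zeb2 from -0.15 to 2.25 and Snai2 from -5.48 to 2.89. Over both clones Zeb1 ran from -0.23 to 0.27, Zeb2 from -0.76 to 0.024 and Snai2 from -1.31 to 0.91. In vehicle Cdh2 ran from -0.26 to 0.063, Zeb1 from -0.43 to 0.33 and Epcam from -0.046 to 0.23. Cdh2 in clone 8 was called at 1.06 and not at -0.11.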
